A study of Mus musculus with 7 samples.

Results

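Nlgn1, Nlgn2 and Nlgn3 encode neuroligins, Nrxn2 and Nrxn3 encode neurexins, and Adam10 encodes a membrane-bound metalloprotease that sheds neuroligin-3 from the cell surface. These 6 genes were taken by symbol as an adhesion pair with its sheddase, with earlier results of these data known. All 6 were found among the 17422 mouse genes measured. Shares and medians of the members are set beside those of all genes as description only. Other genes of both families are not analysed here. RNA of DsRed-sorted cells was sequenced in 3 PDGF-B-labelled gliomas, 3 EGFRvIII-labelled gliomas and 1 neural progenitor culture. All cells came from BALB/c embryos at embryonic day 14, were plated with bFGF and EGF at 10 ng/ml, and carried a retrovirally delivered DsRed reporter. The PDGF-B-labelled gliomas are described as wild-type precursors with a PDGF-B retrovirus, and the EGFRvIII-labelled gliomas as Ink/Arf -/- precursors with an EGFRvIII retrovirus. For either model 20000 transduced cells were injected after 10 days into adult BALB/c brains, and the tumours were dissected once neurological signs appeared and sorted for DsRed. The culture is labelled as wild-type progenitors transduced with PDGF-B that were sorted but not grafted. The glioma groups differ in oncogene and in genotype at once, which cannot be told apart, and the culture is a single library. The series calls the gliomas of a model independent tumours, with no word on separate transductions in the sources used here, so p-values measure the spread between these libraries.

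Neurexins stand mainly on the presynaptic membrane and bind neuroligins on the postsynaptic membrane, a contact that aligns and matures the synapse. Each neurexin gene is read from separate promoters into long alpha and short beta forms, which the gene-level values here sum. Both families are also transcribed in glia, oligodendrocyte precursors included. ADAM10 cuts the ectodomain of neuroligin-3 from neurons and oligodendrocyte precursors, and the shed ectodomain is a known mitogen of high-grade glioma cells in xenografted mice, where it acts through focal adhesion kinase and PI3K-mTOR signalling. Transcript levels show neither the cleavage nor the shed protein.

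Levels are read counts scaled to effective library size (CPM, the unit of the deposited log2 CPM), given without the prior count. That size is the recovered read total times a scaling factor. The factor ranged from 0.856 in replicate 2 labelled EGFRvIII to 1.064 in replicate 3 labelled EGFRvIII. Recovered depth ranged from 32513754 to 39062584 reads per library. The drivers ran against the glioma labels. Egfr stood at 3594 to 5109 CPM in the PDGF-B-labelled gliomas, 25.6 to 41.2 CPM in the EGFRvIII-labelled gliomas and 282 CPM in the culture. Pdgfb stood at 1.95 to 4.88 CPM in the PDGF-B-labelled gliomas, 277 to 386 CPM in the EGFRvIII-labelled gliomas and 245 CPM in the culture. Every direction between the glioma groups therefore holds for the labels and may be the other way round for the oncogenes. A difference from the culture keeps its sign, but may belong to the other oncogene. In Pdgfb the culture, labelled PDGF-B, stood nearer the EGFRvIII-labelled gliomas, and in Egfr it lay between the glioma groups. Cdkn2a, the Ink/Arf gene said to be deleted in the EGFRvIII-labelled gliomas, stood at 2.94 to 4.99 CPM in the PDGF-B-labelled gliomas, 11.2 to 26.1 CPM in the EGFRvIII-labelled gliomas and 10.7 CPM in the culture. In the culture, the progenitor genes Sox2 and Nes, looked up after the lists were made, stood at 397 and 1341 CPM, above all 6 gliomas.

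The sorted cells differed in their markers, and fewer cells of a type cannot be told apart from less RNA per cell in such bulk libraries. The summed level of 15 oligodendrocyte precursor markers was 14940 to 27850 CPM in the PDGF-B-labelled gliomas, 11030 to 14670 CPM in the EGFRvIII-labelled gliomas and 6037 CPM in the culture. The summed level of 20 microglia and macrophage markers was 628.5 to 2494 CPM in the PDGF-B-labelled gliomas, 8991 to 19820 CPM in the EGFRvIII-labelled gliomas and 22.7 CPM in the culture, where Trem2, C1qb, Siglech, Fcrls, Tyrobp and Adgre1 had no read. The summed level of 13 mature neuron markers was 222.5 to 403.5 CPM, 217.9 to 288.8 CPM and 172.1 CPM in the same order. Of this list, Rbfox3 and Stmn2 stayed under 2.3 CPM in all 7 libraries. Snap25, Syn1, Syp and Gad1 were above the culture in every glioma, as were 27.8% of all genes. Snap25 stood at 21.2 to 103 CPM and Syn1 at 54.5 to 94.9 CPM in the gliomas. Against the culture, 6 of the 13 had a positive log2 difference in the PDGF-B-labelled gliomas and 6 in the EGFRvIII-labelled gliomas. The medians of the 13 were -0.32 and -0.91 in that order. Glioma replicate 3 labelled PDGF-B stood apart from its group in the microglia and macrophage sum, at 2494 CPM against 628.5 and 844.2 CPM. It also had the group's lowest precursor sum.

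**Figure D1:**
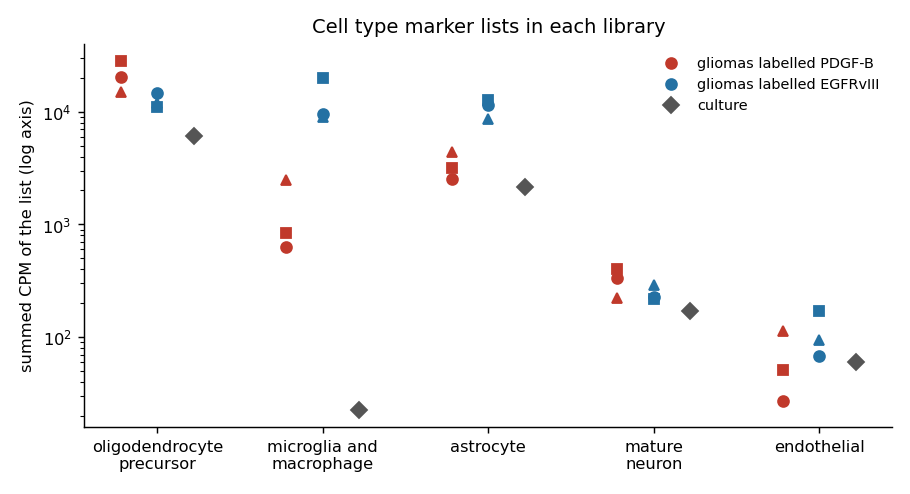
Summed CPM of 5 cell type marker lists in each library on a log axis. Circles, squares and triangles are glioma replicates 1, 2 and 3, and the diamond is the culture. The microglia and macrophage list spans 22.7 CPM in the culture to 19820 CPM in replicate 2 labelled EGFRvIII, while the mature neuron list stays between 172.1 and 403.5 CPM.

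RefSeq promoter windows (build GRCm38.p6, 250 bases before and 50 after each annotated start) were available for 4 of the 6 genes. The windows printed here belong to the most abundant adhesion gene, Nlgn2, to the gene with the widest spread between libraries, Nrxn3, and to the gene with the narrowest, Adam10. Capitals mark a GC box, GGGCGG on either strand, the letters bound by factors of the Sp family. The Nlgn2 window lies at chr11:69837735-69838034 on the minus strand, that of Adam10 at chr9:70678732-70679031 on the plus strand. Those of Nrxn3 lie on the plus strand at chr12:88794254-88794553 for the most upstream of the 3 listed starts and chr12:89812233-89812532 for the most downstream one. The annotated Nrxn3 gene begins further upstream, at chr12:88722876, and none of its windows covers that start.
Nlgn2: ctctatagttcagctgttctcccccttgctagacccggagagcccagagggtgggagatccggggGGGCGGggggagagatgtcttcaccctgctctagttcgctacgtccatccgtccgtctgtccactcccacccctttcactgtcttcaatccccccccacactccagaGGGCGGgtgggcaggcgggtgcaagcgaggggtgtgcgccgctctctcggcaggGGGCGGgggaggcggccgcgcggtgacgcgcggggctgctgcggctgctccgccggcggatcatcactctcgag
Adam10: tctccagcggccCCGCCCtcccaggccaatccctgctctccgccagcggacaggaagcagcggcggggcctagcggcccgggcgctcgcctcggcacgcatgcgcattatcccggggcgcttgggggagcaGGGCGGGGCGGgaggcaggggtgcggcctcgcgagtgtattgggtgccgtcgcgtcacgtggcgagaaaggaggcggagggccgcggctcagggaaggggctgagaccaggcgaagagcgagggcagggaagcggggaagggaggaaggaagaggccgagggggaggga
Nrxn3 upstream start: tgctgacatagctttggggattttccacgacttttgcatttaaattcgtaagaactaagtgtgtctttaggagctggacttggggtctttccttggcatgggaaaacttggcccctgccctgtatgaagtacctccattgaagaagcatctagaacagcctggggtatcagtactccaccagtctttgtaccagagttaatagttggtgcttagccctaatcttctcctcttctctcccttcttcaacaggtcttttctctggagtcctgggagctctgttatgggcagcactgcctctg
Nrxn3 downstream start: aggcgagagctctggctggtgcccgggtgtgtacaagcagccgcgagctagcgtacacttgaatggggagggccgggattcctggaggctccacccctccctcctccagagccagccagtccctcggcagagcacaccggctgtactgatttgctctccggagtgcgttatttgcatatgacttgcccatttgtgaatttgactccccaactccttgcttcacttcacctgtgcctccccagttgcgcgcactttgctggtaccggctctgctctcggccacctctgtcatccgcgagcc
The Nlgn2 and Adam10 windows hold 3 GC boxes each, of which a pair in Adam10 shares a base, and 26 and 32 CpG dinucleotides. The upstream Nrxn3 window holds no GC box and 2 CpG, the middle one 1 GC box and 6 CpG, and the downstream one no GC box and 16 CpG. Over 32851 mouse promoters of the same length, 35.7% hold a GC box and the median is 7 CpG, with quartiles of 3 and 20. The letters of the TATA box (TATAAA) and of the cAMP response element (TGACGTCA), found on either strand in 13.6% and 1.79% of promoters, occur in none of the member windows, which says only that these letters are not in these stretches.

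The question of the series is how the PDGF-B and EGFRvIII models differ. Nlgn1, Nlgn2, Nlgn3, Nrxn2 and Nrxn3 all averaged higher in the PDGF-B-labelled gliomas than in the EGFRvIII-labelled gliomas, by 0.52 to 1.079 on the log2 scale, and Adam10 averaged lower, with a log2 difference of -0.37. None of the 6 passed limma's test at an adjusted p of 0.05, fitted and adjusted over all 17422 genes, and none passed with voom weights. Over all genes 3.35% were called in this comparison, 0.717% higher and 2.63% lower in the PDGF-B-labelled gliomas. At an unadjusted p under 0.05 stood Nlgn1, Nlgn2 and Nrxn2, 3 of 6 members, beside 16.7% of all genes. The glioma groups did not overlap in Nlgn2, which was higher in all 3 PDGF-B-labelled gliomas as were 10.3% of all genes, nor in Adam10, which was lower in all 3 as were 12.6% of all genes. The median difference of the 6 genes was 0.67, beside 0 over all genes.

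Against the culture the neurexins differed most among the 6 genes. Nrxn2 and Nrxn3 were higher in the PDGF-B-labelled gliomas, and these 2 of 6 members compare with 9.45% of all genes called, 7.73% higher and 1.73% lower. In the EGFRvIII-labelled gliomas none of the 6 passed limma's adjusted threshold or voom's, while 9.55% of all genes were called, 8.2% higher and 1.34% lower. At an unadjusted p under 0.05 stood 4 of 6 members in the first of these comparisons and 2 of 6 in the second, beside 27.2% and 23.9% of all genes. Nlgn1, Nlgn2, Nrxn2 and Nrxn3 were above the culture in all 6 gliomas, as were 27.8% of all genes, and no member was below it in all 6, as were 24% of all genes. Member medians were 1.45 for the PDGF-B-labelled gliomas and 0.78 for the EGFRvIII-labelled gliomas, beside all-gene medians of 0.037 and 0.013. Both comparisons share the same culture library, whose spread is assumed to equal that of the gliomas. The precursor marker sum was also lowest in the culture, at 6037 CPM against 11030 to 27850 CPM in the gliomas, and its part in these differences was not tested.

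**Figure D2:**
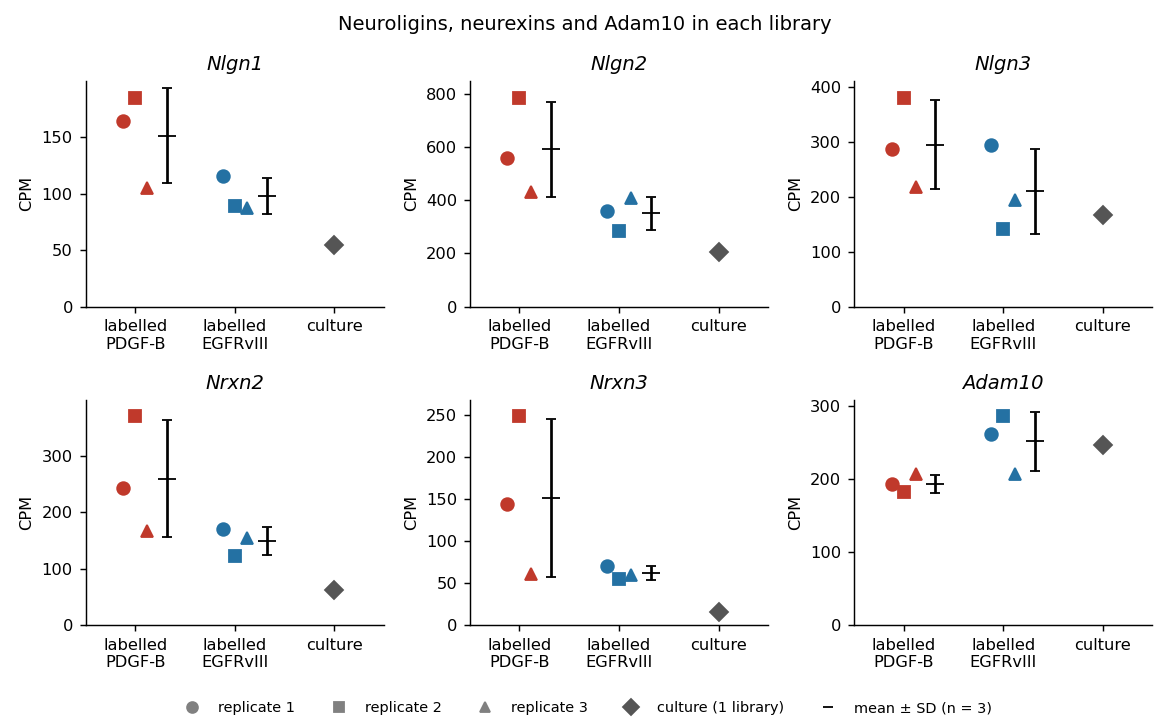
CPM of each of the 6 genes in every library, with axes from 0. Symbols mark replicate numbers, horizontal bars with whiskers are means ± SD of 3 gliomas, and the diamond is the culture. The square of replicate 2 labelled PDGF-B is the highest point in all 5 adhesion genes, while Adam10 stays between 182 and 286 CPM.

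Nlgn1 (ENSMUSG00000063887, chr3:25426215-26332460, minus strand, mm10) encodes neuroligin-1, found mostly at excitatory synapses. It stood at 165, 185 and 105 CPM in the 3 PDGF-B-labelled gliomas, listed here and below from replicate 1 to replicate 3, 116, 89.0 and 87.6 CPM in the EGFRvIII-labelled gliomas, and 54.8 CPM in the culture. The glioma groups overlapped only through replicate 3 labelled PDGF-B, and every glioma was above the culture. The log2 difference between the glioma groups was 0.61 ± 0.25 (SE, limma adjusted p = 0.2925). Against the culture it was 1.43 ± 0.36 for the PDGF-B-labelled gliomas (SE, limma adjusted p = 0.0503), just outside the threshold, and 0.82 ± 0.36 for the EGFRvIII-labelled gliomas (SE, limma adjusted p = 0.218). The antisense gene A830092H15Rik overlaps 9.16% of the Nlgn1 exon length and was counted at 0.621 CPM at most.

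Nlgn2 (ENSMUSG00000051790, chr11:69823122-69837784, minus strand) encodes neuroligin-2, the form of inhibitory synapses. It stood at 557, 784 and 431 CPM in the PDGF-B-labelled gliomas, 359, 284 and 408 CPM in the EGFRvIII-labelled gliomas, and 206 CPM in the culture. The glioma groups did not overlap, with replicate 3 of either group closest to the other, and all gliomas were above the culture. The difference between the glioma groups was 0.73 ± 0.27 on the log2 scale (SE, limma adjusted p = 0.240), a 1.65-fold level with a 95% interval of 1.06 to 2.58. Against the culture the log2 differences were 1.47 ± 0.38 for the PDGF-B-labelled gliomas (SE, limma adjusted p = 0.0560) and 0.75 ± 0.38 for the EGFRvIII-labelled gliomas (SE, limma adjusted p = 0.292).

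Nlgn3 (ENSMUSG00000031302, chrX:101299168-101325963, plus strand) encodes neuroligin-3, the form whose shed ectodomain acts on glioma cells. It stood at 287, 379.6 and 217 CPM in the PDGF-B-labelled gliomas, 293, 141 and 194 CPM in the EGFRvIII-labelled gliomas, and 166.5 CPM in the culture. Replicate 1 labelled EGFRvIII was second only to replicate 2 labelled PDGF-B, the groups overlapped, and replicate 2 labelled EGFRvIII was below the culture. The log2 difference was 0.52 ± 0.32 between the glioma groups, with a 95% interval of -0.24 to 1.28 (SE, limma adjusted p = 0.462). Against the culture it was 0.79 ± 0.45 for the PDGF-B-labelled gliomas (SE, limma adjusted p = 0.301) and 0.27 ± 0.45 for the EGFRvIII-labelled gliomas (SE, limma adjusted p = 0.785). Over 41.2% of the merged exon length, Nlgn3 shares its strand and sequence with the processed transcript Gm21986 (ENSMUSG00000096056), so reads of either cannot be told apart there. Gm21986 itself was counted at 53.7 to 74.4 CPM in the PDGF-B-labelled gliomas, 45.3 to 67.8 CPM in the EGFRvIII-labelled gliomas and 43.0 CPM in the culture. Summed over both genes, the log2 differences were 0.42 between the glioma groups, 0.74 for the PDGF-B-labelled gliomas against the culture and 0.33 for the EGFRvIII-labelled gliomas against it.

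Nrxn2 (ENSMUSG00000033768, chr19:6418731-6544169, plus strand) encodes neurexin-2. It stood at 242, 369.7 and 166 CPM in the PDGF-B-labelled gliomas, 171, 122 and 154 CPM in the EGFRvIII-labelled gliomas, and 62.6 CPM in the culture. Replicate 3 labelled PDGF-B lay inside the range of the EGFRvIII-labelled gliomas, and the culture was lowest. Nrxn2 rose 3.93-fold in the PDGF-B-labelled gliomas against the culture, a log2 difference of 1.97 ± 0.43 with a 95% interval of 0.96 to 2.98 (SE, limma adjusted p = 0.0322). The difference was 1.24 ± 0.43 in the EGFRvIII-labelled gliomas (SE, limma adjusted p = 0.130) and 0.74 ± 0.31 between the glioma groups (SE, limma adjusted p = 0.291), neither of them called. Antisense neighbours overlap little of its exon length, Gm14964 1.5% (1.51 CPM at most) and Slc22a12 4.94% (not used here), and whether the counting used strand is not stated.

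Nrxn3 (ENSMUSG00000066392, chr12:88722876-90334935, plus strand) encodes neurexin-3 and varied most of the 6 genes, 16.4-fold between the highest and the lowest library. It stood at 145, 249 and 60.8 CPM in the PDGF-B-labelled gliomas, 70.6, 54.9 and 59.7 CPM in the EGFRvIII-labelled gliomas, and 15.1 CPM in the culture, where 523 reads lay behind the value. The PDGF-B-labelled gliomas differed 4.09-fold among themselves, the EGFRvIII-labelled gliomas 1.28-fold, and replicate 3 labelled PDGF-B fell among the EGFRvIII-labelled gliomas. Nrxn3 rose 8.55-fold in the PDGF-B-labelled gliomas against the culture, a log2 difference of 3.10 ± 0.66 (SE, limma adjusted p = 0.0298). The difference was 2.02 ± 0.66 in the EGFRvIII-labelled gliomas (SE, limma adjusted p = 0.110) and 1.079 ± 0.467 between the glioma groups (SE, limma adjusted p = 0.306).

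The neurexin calls depended on which libraries were in the fit. Without replicate 1 labelled PDGF-B, the limma adjusted p against the culture was 0.0820 for Nrxn2 and 0.0750 for Nrxn3. Without replicate 1 labelled EGFRvIII it was 0.0546 for both genes, and without replicate 3 labelled EGFRvIII it was 0.0645 for Nrxn2 and 0.0618 for Nrxn3. Without replicate 2 labelled EGFRvIII, Nrxn3 stood at 0.0521 while Nrxn2 stayed called. Over the 6 fits that leave out 1 glioma, the log2 difference ranged from 1.68 to 2.26 for Nrxn2 and from 2.63 to 3.64 for Nrxn3. Leaving out an EGFRvIII-labelled glioma did not change these differences, only their estimated error and the adjustment. Nlgn1 also passed in the PDGF-B-labelled gliomas against the culture with library totals, with quantile normalization and with a filter at 1 CPM (limma adjusted p = 0.0457, 0.0462 and 0.0479). Leaving out replicate 3 labelled PDGF-B widened the calls. Against the culture Nlgn1 and Nlgn2 then passed in the PDGF-B-labelled gliomas (limma adjusted p = 0.0132 and 0.0288), and Nrxn3 passed in the EGFRvIII-labelled gliomas (limma adjusted p = 0.0138). Between the glioma groups Nrxn3 then differed by 1.63 ± 0.28 on the log2 scale (SE, limma adjusted p = 0.0188). Without replicate 2 labelled PDGF-B, Nrxn3 also passed in the EGFRvIII-labelled gliomas against the culture (limma adjusted p = 0.04655). With voom weights the adjusted p was 0.0537 for Nrxn2 and 0.0774 for Nrxn3 in the PDGF-B-labelled gliomas, and without trend and robust moderation it was 0.0610 and 0.0557.

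Adam10 (ENSMUSG00000054693, chr9:70678997-70780229, plus strand), the sheddase, was the steadiest of the 6 genes and differed 1.57-fold between its highest and its lowest library. It stood at 193, 182 and 206.8 CPM in the PDGF-B-labelled gliomas, 262, 286 and 207.1 CPM in the EGFRvIII-labelled gliomas, and 247 CPM in the culture. All 3 PDGF-B-labelled gliomas were below all 3 labelled EGFRvIII, with replicate 3 of either group almost equal, and the culture lay inside the range of the EGFRvIII-labelled gliomas. The log2 difference between the glioma groups was -0.37 ± 0.19, with a 95% interval of -0.81 to 0.08 (SE, limma adjusted p = 0.381). Against the culture it was -0.35 ± 0.27 for the PDGF-B-labelled gliomas (SE, limma adjusted p = 0.429) and 0.02 ± 0.27 for the EGFRvIII-labelled gliomas (SE, limma adjusted p = 0.980).

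**Figure D3:**
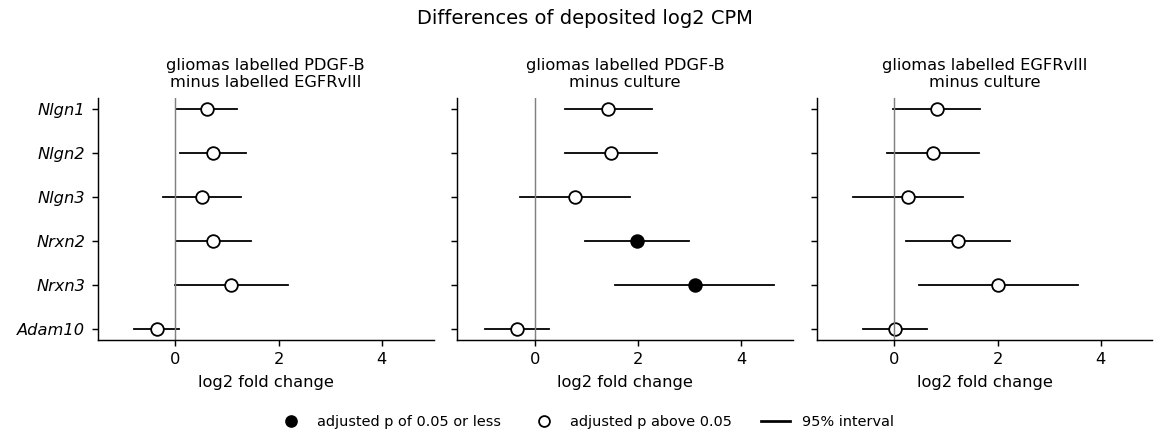
Log2 differences of the 6 genes in the 3 comparisons, with 95% intervals from limma. Filled points have an adjusted p of 0.05 or less over all 17422 genes. Only Nrxn2 and Nrxn3 are filled, at 1.97 and 3.10 in the PDGF-B-labelled gliomas minus the culture, and Adam10 lies between -0.37 and 0.02.

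Levels of different genes were set side by side per kilobase of merged exon. In the PDGF-B-labelled gliomas, Nlgn2 led at 102 ± 30.9 CPM per kb (SD, n = 3), followed by Adam10 at 39.5 ± 2.52, Nlgn3 at 31.8 ± 8.78, Nrxn2 at 18.8 ± 7.44, Nrxn3 at 12.01 ± 7.464 and Nlgn1 at 11.3 ± 3.12 CPM per kb. Among neighbours in that order, the library values overlapped for Adam10 and Nlgn3, for Nlgn3 and Nrxn2, for Nrxn2 and Nrxn3, and for Nrxn3 and Nlgn1, and did not for Nlgn2 and Adam10. In the EGFRvIII-labelled gliomas, Nlgn2 stood at 60.5 ± 10.8, Adam10 at 51.3 ± 8.26, Nlgn3 at 22.6 ± 8.34, Nrxn2 at 10.8 ± 1.78, Nlgn1 at 7.27 ± 1.19 and Nrxn3 at 4.90 ± 0.636 CPM per kb (SD, n = 3). There the library values overlapped for Nlgn2 and Adam10 only. In the culture Adam10 was highest at 50.2 CPM per kb, before Nlgn2 at 35.7, Nlgn3 at 18.0, Nrxn2 at 4.53, Nlgn1 at 4.08 and Nrxn3 at 1.20 CPM per kb. The Nlgn3 levels leave out the counts of Gm21986, with which Nlgn3 shares exon sequence, so they are uncertain to that extent. The order depends on the length used. Per kilobase of the longest transcript, Nrxn2 at 38.9 CPM stood before Nlgn3 at 34.5 in the PDGF-B-labelled gliomas, and per kilobase of coding length, Nlgn3 at 116 CPM stood before Adam10 at 86.4.

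**Figure D4:**
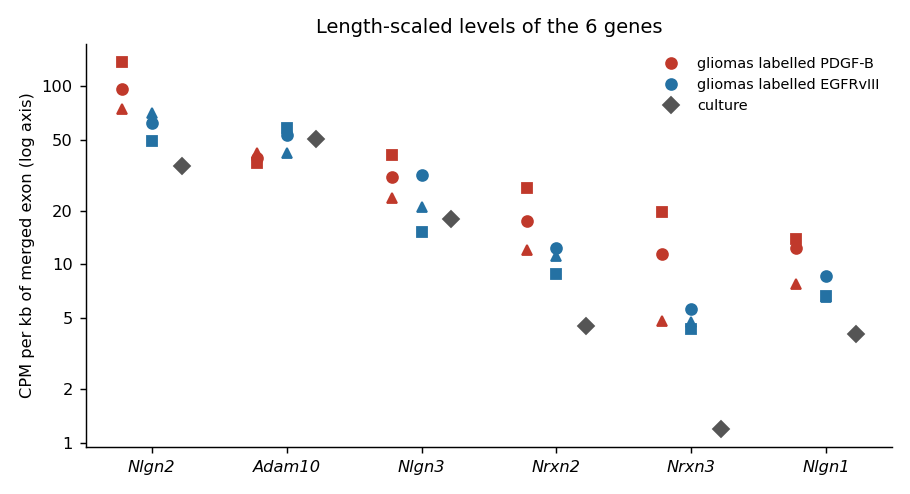
CPM per kilobase of merged exon for the 6 genes on a log axis, ordered by the mean of the PDGF-B-labelled gliomas. Circles, squares and triangles are glioma replicates 1, 2 and 3, and the diamond is the culture. Nlgn2 reaches 135 CPM per kb in replicate 2 labelled PDGF-B, and Nrxn3 in the culture is lowest at 1.20.

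The balance between the substrate and its protease was read as the ratio of Nlgn3 to Adam10 per kilobase. It was 0.786, 1.10 and 0.557 in the PDGF-B-labelled gliomas, 0.593, 0.261 and 0.496 in the EGFRvIII-labelled gliomas, and 0.358 in the culture. On this length Nlgn3 exceeded its sheddase in replicate 2 labelled PDGF-B, and per kilobase of coding length also in replicate 1 labelled PDGF-B, at 113.1 against 86.02 CPM for Adam10. With merged exons the groups overlapped between replicate 3 labelled PDGF-B and replicate 1 labelled EGFRvIII. Nlgn3 shares 41.2% of its merged exon length with Gm21986, whose counts are not in this ratio. The ratio and the overlap of the groups may therefore depend on how shared reads were assigned. The ratio of Nlgn2 to Adam10 was 2.45, 3.66 and 1.77 in the PDGF-B-labelled gliomas, 1.16, 0.841 and 1.67 in the EGFRvIII-labelled gliomas and 0.711 in the culture. This ratio did not overlap between the glioma groups, and every glioma was above the culture. The lack of overlap follows from that of Nlgn2 and of Adam10 in opposite directions, and is no further result. These ratios are on the transcript level and use the merged exon length.

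The 5 adhesion genes shared their highest library, and Adam10 had another. Replicate 2 labelled PDGF-B was highest in each of the 5, the culture was lowest in all but Nlgn3, where replicate 2 labelled EGFRvIII was, and replicate 3 was lowest of its group in each, while replicate 2 labelled PDGF-B was the lowest library of all in Adam10. The same replicates held the highest and the lowest precursor marker sum of their group, 27850 and 14940 CPM, whose part was not tested. Likeness was measured as the root mean square difference of centred log2 CPM over the 7 libraries, where 0 is the same profile. The closest members were Nlgn1 and Nlgn2 at 0.208 and Nlgn2 and Nrxn2 at 0.210, and the farthest were Adam10 and Nrxn3 at 1.32. Among 12873 genes searched, the genes most like Nlgn1 were Lsamp at 0.067, Nxph1 at 0.086 and Ntm at 0.092. Lsamp and Ntm encode neural cell adhesion proteins of the IgLON family, and Nxph1 encodes neurexophilin-1, a ligand of alpha-neurexins. Nxph1 stood at 183, 190.4 and 120 CPM in the PDGF-B-labelled gliomas, 124, 92.2 and 86.2 CPM in the EGFRvIII-labelled gliomas and 64.6 CPM in the culture, in nearly the same steps as Nlgn1.

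The genes most like Nlgn2 were Adgrb1 at 0.087, a brain adhesion receptor, Ufsp1 at 0.114 and Porcn at 0.117, the acyltransferase of Wnt proteins. Those most like Nlgn3 were Dnah7c at 0.062, a dynein heavy chain of a set of near-identical genes whose reads are uncertain, Sobp at 0.094 and Fryl at 0.1. Those most like Nrxn2 were Usp24 at 0.102, a deubiquitinase, Grid1 at 0.130, a delta glutamate receptor that neurexins reach through cerebellins, and Syn2 at 0.137, a synapsin. Those most like Nrxn3 were Dpp6 at 0.182, a potassium channel subunit, Pdgfra at 0.187, the platelet-derived growth factor receptor of oligodendrocyte precursors, and Slc38a3 at 0.198, an amino acid transporter. Pdgfra stood at 3825, 4797 and 1738 CPM in the PDGF-B-labelled gliomas, 1904, 1402 and 1773 CPM in the EGFRvIII-labelled gliomas and 408 CPM in the culture. Those most like Adam10 were Actr2 at 0.044, a subunit of the actin-nucleating Arp2/3 complex, Rnf115 at 0.044 and Cops8 at 0.055. All values rest on the same 7 libraries, and the part of marker levels in them was not tested.

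Other extracellular partners of neurexins and neuroligins were measured for 20 of 23 listed genes. Over all genes, 9.45% and 9.55% were called in the PDGF-B-labelled and the EGFRvIII-labelled gliomas against the culture. In the PDGF-B-labelled gliomas against the culture, 9 rose (C1ql2, Cbln4, Clstn3, Lrrtm3, C1ql3, Lrrtm4, C1ql1, Grid1 and Lrrtm2) and 1 fell (Adgrl2), with a median log2 difference of 1.58. In the EGFRvIII-labelled gliomas against the same culture, 7 rose (C1ql2, Clstn3, Lrrtm3, Cbln4, C1ql3, Lrrtm2 and Lrrtm4) and 1 fell (Clstn2), with a median of 1.10. Of these, 7 and 5 that rose were called whichever glioma was left out. In the PDGF-B-labelled gliomas the exceptions were Lrrtm2, lost without replicate 1 or 2 labelled PDGF-B, and Grid1, lost without replicate 1, with adjusted p up to 0.0692 and 0.0570 over all settings. In the EGFRvIII-labelled gliomas they were Lrrtm2 and Lrrtm4, both lost without replicate 1 labelled PDGF-B or replicate 1 or 2 labelled EGFRvIII, and Lrrtm4 also without replicate 3 labelled EGFRvIII, with adjusted p up to 0.0795 and 0.143. The calls in the EGFRvIII-labelled gliomas numbered 5 in all, against 8, without replicate 1 labelled PDGF-B, without replicate 1 labelled EGFRvIII and without replicate 2 labelled EGFRvIII. With voom weights 3 rose and 1 fell in the first comparison, and 2 rose and 1 fell in the second. Between the glioma groups 1 of the 20 rose in the PDGF-B-labelled gliomas, Cbln4, beside 3.35% of all genes called, and the median was 0.68.

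C1ql2, a secreted C1q-like protein that binds neurexin-3, stood at 44.7, 47.9 and 25.7 CPM in the PDGF-B-labelled gliomas, 20.6, 16.9 and 16.1 CPM in the EGFRvIII-labelled gliomas, and 0.116 CPM in the culture. The gliomas were all far above the culture, with log2 differences of 7.78 ± 0.42 for the PDGF-B-labelled gliomas and 6.68 ± 0.42 for the EGFRvIII-labelled gliomas (SE, limma adjusted p = 0.000389 and 0.000336). The culture value of C1ql2 lay close to that of 3 reads, 0.0868 CPM, so the size of both differences depends on the prior count. Cbln4, a secreted cerebellin that binds neurexins, stood at 21.9, 17.7 and 7.70 CPM in the PDGF-B-labelled gliomas, 0.717, 2.42 and 1.42 CPM in the EGFRvIII-labelled gliomas, and had no read in the culture. Against 3 reads in the culture, which is 0.0868 CPM, the mean of the PDGF-B-labelled gliomas was at least 182-fold higher and that of the EGFRvIII-labelled gliomas at least 17.5-fold higher. Between the glioma groups Cbln4 differed by 3.35 ± 0.56 on the log2 scale (SE, limma adjusted p = 0.0312). That call was lost when any glioma except replicate 3 labelled PDGF-B was left out, and over all settings tried the adjusted p reached 0.113.

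Clstn3, a calsyntenin that binds alpha-neurexins, stood at 78.3, 96.0 and 33.5 CPM in the PDGF-B-labelled gliomas, 63.3, 64.6 and 61.6 CPM in the EGFRvIII-labelled gliomas, and 3.44 CPM in the culture. The groups overlapped, and every glioma was above the culture, as for 27.8% of all genes. Lrrtm3, a postsynaptic leucine-rich repeat ligand of neurexins, stood at 131, 165 and 92.3 CPM in the PDGF-B-labelled gliomas, 155, 129 and 105 CPM in the EGFRvIII-labelled gliomas, and 22.4 CPM in the culture. Adgrl2, the latrophilin-2 adhesion receptor, had 12.7, 15.3 and 39.4 CPM in the PDGF-B-labelled gliomas, 57.4, 37.4 and 60.7 CPM in the EGFRvIII-labelled gliomas, and 160.4 CPM in the culture. It fell by 3.02 ± 0.61 on the log2 scale in the PDGF-B-labelled gliomas against the culture (SE, limma adjusted p = 0.0254), a call lost without replicate 1 or 2 labelled PDGF-B or replicate 3 labelled EGFRvIII, and over all settings the adjusted p reached 0.0571. Clstn2, another calsyntenin, stood at 2.18, 3.67 and 1.37 CPM in the PDGF-B-labelled gliomas, 0.832, 0.957 and 1.85 CPM in the EGFRvIII-labelled gliomas, and 9.87 CPM in the culture. It fell by 3.05 ± 0.70 on the log2 scale in the EGFRvIII-labelled gliomas (SE, limma adjusted p = 0.0367), a call lost without replicate 1 labelled PDGF-B or replicate 1 or 2 labelled EGFRvIII, with adjusted p up to 0.0883 over all settings.

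**Figure D5:**
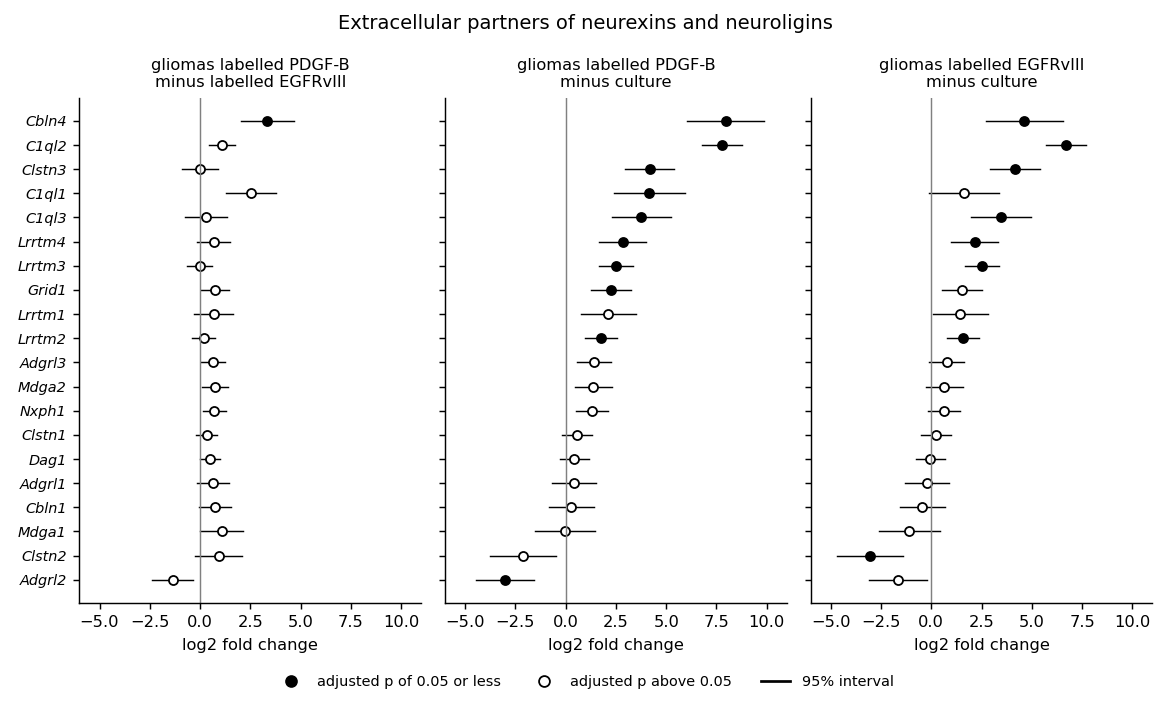
Log2 differences of 20 extracellular partners of neurexins and neuroligins in the 3 comparisons, with 95% limma intervals, ordered by the difference of the PDGF-B-labelled gliomas from the culture. Filled points have an adjusted p of 0.05 or less over all genes. In the PDGF-B-labelled gliomas minus the culture, C1ql2 lies at 7.78 and Adgrl2 at -3.02. The points of Cbln4, which had no read in the culture, and of C1ql2, at 0.116 CPM there, depend on the prior count in both comparisons with the culture.

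Intracellular scaffolds of the synapse were called at about the share of all genes. Of 22 genes, 2 rose against the culture in the PDGF-B-labelled gliomas (Dlgap1 and Apba1), while 1 rose (Dlgap1) and 1 fell (Cask) in the EGFRvIII-labelled gliomas, with medians of 0.12 and 0.04, beside 9.45% and 9.55% of all genes called in either direction. Between the glioma groups 0 were called by limma and 0 with voom weights, 3 had an unadjusted p under 0.05, and the median was 0.23. Dlgap1, which links postsynaptic density protein 95 to Shank proteins, stood at 291, 316 and 205 CPM in the PDGF-B-labelled gliomas, 228, 209.7 and 203.5 CPM in the EGFRvIII-labelled gliomas, and 14.0 CPM in the culture. The log2 differences from the culture were 4.24 ± 0.29 and 3.92 ± 0.29 for the PDGF-B-labelled and the EGFRvIII-labelled gliomas (SE, limma adjusted p = 0.000962 and 0.000546), called whichever glioma was left out. Cask, a kinase-like scaffold that binds neurexin tails, stood at 201, 193 and 189 CPM in the PDGF-B-labelled gliomas, 162, 131 and 135 CPM in the EGFRvIII-labelled gliomas, and 323 CPM in the culture. Apba1, which binds Cask, stood at 58.6, 63.3 and 38.7 CPM, 35.2, 25.2 and 39.2 CPM, and 15.2 CPM in the same order. The call of Cask was lost without replicate 1 labelled PDGF-B or replicate 3 labelled EGFRvIII, and that of Apba1 without replicate 1 or 2 labelled PDGF-B or replicate 1 labelled EGFRvIII, with adjusted p up to 0.0617 and 0.0834 over all settings.

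Of 14 measured genes on a list of ADAM10 partners and metalloprotease inhibitors and carriers, 1 rose (Timp3) and 2 fell (Timp2 and Rhbdf2) in the PDGF-B-labelled against the EGFRvIII-labelled gliomas, with a median of -0.41. Over all genes 3.35% were called in this comparison. Timp3, an inhibitor of ADAM10 and ADAM17, stood at 279, 323 and 91.0 CPM in the PDGF-B-labelled gliomas, 43.5, 21.1 and 24.98 CPM in the EGFRvIII-labelled gliomas, and 78.2 CPM in the culture. The log2 difference between the glioma groups was 2.83 ± 0.51 (SE, limma adjusted p = 0.0344). Timp2, an inhibitor of matrix metalloproteinases, stood at 144, 128 and 148 CPM in the PDGF-B-labelled gliomas, 292, 436 and 290 CPM in the EGFRvIII-labelled gliomas, and 72.4 CPM in the culture. Its log2 difference was -1.25 ± 0.21 (SE, limma adjusted p = 0.0320). Rhbdf2, which carries ADAM17 to the cell surface, stood at 1.54, 2.27 and 5.97 CPM in the PDGF-B-labelled gliomas, 20.2, 21.0 and 14.9 CPM in the EGFRvIII-labelled gliomas, and 1.30 CPM in the culture. For each of these 3 genes the call between the glioma groups held without replicate 3 labelled PDGF-B and was lost without any other glioma, and over all settings the adjusted p reached 0.158. The microglia and macrophage sum moved with Timp2 and Rhbdf2, and its part in them was not tested.

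Against the culture, 1 of the 14 rose (Timp4) and 1 fell (Sfrp1) in the PDGF-B-labelled gliomas, while 4 rose (Timp4, Timp2, Rhbdf2 and Furin) and none fell in the EGFRvIII-labelled gliomas. The shares of all genes called were 9.45% and 9.55% in that order. With voom weights 1 rose and 1 fell in the PDGF-B-labelled gliomas, and 2 rose and 1 fell in the EGFRvIII-labelled gliomas. The medians were -0.28 and -0.34. Timp4, a metalloproteinase inhibitor of the brain and heart, stood at 113, 114 and 108 CPM in the PDGF-B-labelled gliomas, 130.3, 98.4 and 102 CPM in the EGFRvIII-labelled gliomas, and 24.5 CPM in the culture. Its log2 differences from the culture were 2.19 ± 0.24 and 2.16 ± 0.24 for the PDGF-B-labelled and the EGFRvIII-labelled gliomas (SE, limma adjusted p = 0.00330 and 0.00218). Sfrp1, a secreted Wnt modulator that also inhibits ADAM10, stood at 7.48, 7.26 and 4.13 CPM in the PDGF-B-labelled gliomas, 11.1, 8.10 and 11.8 CPM in the EGFRvIII-labelled gliomas, and 35.5 CPM in the culture. Both glioma groups were below the culture, and the log2 difference of the PDGF-B-labelled gliomas was -2.54 ± 0.45 (SE, limma adjusted p = 0.0165). The calls of Furin, which removes the ADAM10 prodomain, and of Rhbdf2 in the EGFRvIII-labelled gliomas were lost without replicate 3, and without replicate 1 or 2, labelled EGFRvIII, with adjusted p up to 0.0579 and 0.0563. The 5 measured tetraspanins of the group that escorts ADAM10 had no call. Named outside the rule, Tspan14 stood at 18.2, 17.3 and 31.99 CPM in the PDGF-B-labelled gliomas, 42.6, 85.15 and 58.7 CPM in the EGFRvIII-labelled gliomas and 45.7 CPM in the culture, with a log2 difference of -1.46 ± 0.33 between the glioma groups (SE, limma adjusted p = 0.0665). Tspan15, also named outside the rule, stood at 12.8, 10.97 and 11.01 CPM in the PDGF-B-labelled gliomas, 7.17, 8.10 and 8.97 CPM in the EGFRvIII-labelled gliomas and 18.8 CPM in the culture, with a log2 difference of -1.22 ± 0.32 between the EGFRvIII-labelled gliomas and the culture (SE, limma adjusted p = 0.0592).

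Of 8 other ADAM and BACE proteases, 1 fell (Adam8) in the PDGF-B-labelled against the EGFRvIII-labelled gliomas, 2 rose (Adam12 and Adam9) in the PDGF-B-labelled gliomas against the culture, and 1 rose (Adam8) in the EGFRvIII-labelled gliomas against it. The medians were 0.24, 0.44 and 0.88, and the shares of all genes called were 3.35%, 9.45% and 9.55% in the same order. Adam12 stood at 745, 596 and 431 CPM in the PDGF-B-labelled gliomas, 272, 243 and 368 CPM in the EGFRvIII-labelled gliomas, and 135 CPM in the culture. Adam8, a protease of leukocytes, stood at 4.03, 6.73 and 12.9 CPM in the PDGF-B-labelled gliomas, 39.3, 181 and 46.0 CPM in the EGFRvIII-labelled gliomas, and 5.30 CPM in the culture. In each glioma group its highest library was also the one with the highest microglia and macrophage sum, and the part of that sum was not tested. Its call between the glioma groups was lost with voom weights and without any glioma except replicate 3 labelled PDGF-B, and over all settings the adjusted p reached 0.144. Its call against the culture also held only without replicate 3 labelled PDGF-B among the fits that leave out 1 glioma, with adjusted p up to 0.153. Adam9 stood at 423, 447 and 314 CPM in the PDGF-B-labelled gliomas, 376, 339 and 292 CPM in the EGFRvIII-labelled gliomas, and 159 CPM in the culture. Its call was lost without replicate 1 or 2 labelled PDGF-B or replicate 1 or 3 labelled EGFRvIII, with adjusted p up to 0.126. Adam17, the sheddase closest to ADAM10 and named outside the rule, stood at 92.8, 97.4 and 87.0 CPM in the PDGF-B-labelled gliomas, 124, 97.2 and 105 CPM in the EGFRvIII-labelled gliomas, and 66.6 CPM in the culture, with no call.

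Focal adhesion kinase and PI3K-mTOR signalling are known to be engaged by shed neuroligin-3. Of 14 of their genes, 1 fell (Ptk2b) in the PDGF-B-labelled against the EGFRvIII-labelled gliomas, and 1 rose (Ptk2b) and 1 fell (Ptk2) in the EGFRvIII-labelled gliomas against the culture, beside 3.35% and 9.55% of all genes called. In the PDGF-B-labelled gliomas against the culture 0 were called by limma and 0 with voom weights, and 3 had an unadjusted p under 0.05. With voom weights 1 fell between the glioma groups, and 0 were called in either comparison with the culture. The 3 medians were 0.04, 0.09 and 0.02 in that order. Ptk2, focal adhesion kinase, stood at 88.8, 83.9 and 104 CPM in the PDGF-B-labelled gliomas, 64.7, 59.8 and 63.8 CPM in the EGFRvIII-labelled gliomas, and 123.2 CPM in the culture. Ptk2b, its relative Pyk2, stood at 2.65, 3.15 and 12.1 CPM in the PDGF-B-labelled gliomas, 35.1, 51.6 and 39.3 CPM in the EGFRvIII-labelled gliomas, and 3.99 CPM in the culture, highest, as the microglia and macrophage sum was, in the EGFRvIII-labelled gliomas, and the part of that sum was not tested. The call of Ptk2b between the glioma groups was lost without any glioma except replicate 3 labelled PDGF-B, and its call against the culture without any of the EGFRvIII-labelled gliomas. That of Ptk2 was lost without replicate 1 or 2 labelled PDGF-B or replicate 1 or 3 labelled EGFRvIII. Over all settings the 3 adjusted p reached 0.153, 0.0990 and 0.0964.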

How the data were processed

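RNA of 6 sorted gliomas and 1 culture was sequenced on a BGISEQ instrument, per the labels' protocols, which name both poly(A) selection and rRNA depletion. STAR, edgeR and mm10 appear in the submitters' processing notes, with no version given. Per the file headers of 6 libraries, the authors deposited log2 CPM for each Ensembl gene (the header of replicate 3 labelled EGFRvIII is silent on the unit, while floor and step match the others). A prior count of 2 was assumed, and with it the low values checked fell on steps of 0.01 read in every library. Read counts, with fractions of 0.01 read, and CPM without the prior were computed from this prior and that floor. Of 17422 genes, 17247 had a symbol in GENCODE (175 had none). Groups follow the labels. The main test was limma 3.58.1 (R 4.3.3) with intensity trend and robust moderation on the deposited log2 values, two-sided, with Benjamini-Hochberg adjustment over all genes at 0.05, in the 6 gliomas for the glioma groups and in all 7 libraries for the comparisons with the culture, whose single library was assumed to vary like the gliomas. Fold changes are on the log2(CPM with prior) scale and understate those of low genes. The fits were also run on simulated counts with the same dispersion for every gene and library. Such counts hold no deviating library, so they cannot show how the fits behave on these data. Alternatives were other scalings, pseudocounts, a filter, voom, other moderation, a replicate block and leaving out each glioma. Named genes are all members, at most 3 called genes of each list per direction and comparison with the smallest p, the drivers and the 3 genes most like each member. The text also names further called genes and a few others, chosen after their values were seen. The members and lists were chosen with earlier results of these data known. 1 gene of the partner list is not reported here. Depth was 32513754 to 39062584 reads per library, and each member had at least 523 reads in every library; the 3-read floor covers counting error only.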

Additional observations from a re-analysis of the deposited data

How the results depend on the processing

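All limits here are for limma's calls at an adjusted p of 0.05. Between the glioma groups the number of members called was 0 in the reported fit and 0 to 1 over the fits that leave out 1 glioma, and the number of all genes called was 583, against 224 without trend and robust moderation, 18 with the replicate block and 4 to 1282 without 1 glioma, the highest without replicate 3 labelled PDGF-B. Whether replicate numbers pair the samples is not known. Deviations of same-numbered gliomas from their group means correlated with r of 0.175, -0.036 and -0.08. Unlike-numbered gliomas gave -0.25 to 0.207, and with 3 gliomas per group these values cannot decide it. The replicate block called 0 members. For the PDGF-B-labelled gliomas against the culture, 2 members were called in the reported fit, 3 with library totals, quantile normalization or the filter at 1 CPM (Nlgn1 added), 0 with voom weights, 0 without trend and robust moderation and 0 to 4 without 1 glioma, and all genes called were 1647, against 553 with voom and 854 to 2303 without 1 glioma. For the EGFRvIII-labelled gliomas against the culture, 0 to 1 members were called without 1 glioma, and all genes called were 1663, against 721 with voom and 1058 to 2030 without 1 glioma. The EGFRvIII-labelled minus culture difference changed sign for Nlgn3 (-0.01 to 0.517 without 1 glioma, negative without replicate 1 labelled EGFRvIII) and for Adam10 (-0.082 to 0.152, negative without replicate 1, at -0.019, or replicate 2 labelled EGFRvIII), neither called in any fit. Over 13 alternatives Nrxn2 kept its call in 8 and Nrxn3 in 7. Library totals moved the median of all genes in the PDGF-B-labelled minus culture comparison to 0.155, against 0.037, and quantile normalization moved it in the EGFRvIII-labelled minus culture comparison to -0.197, against 0.013. Calls in the lists without 1 glioma were computed after seeing the data. The cause of these changes was not tested. Each group had 3 gliomas and the culture 1 library, and each of the 6 genes had at least 523 reads in every library.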

Other observations

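Several gene groups close to the neurexin and neuroligin system were measured beside it. Over all genes 3.35% were called between the glioma groups. Against the culture the shares were 9.45% for the PDGF-B-labelled and 9.55% for the EGFRvIII-labelled gliomas. Gamma-secretase cuts the membrane stubs that shedding of neurexins and neuroligins leaves. Of its 6 subunit genes 0 were called between the glioma groups by limma or with voom weights, with 2 at an unadjusted p under 0.05, and Psen2 was called higher against the culture in both. Psen2, a catalytic subunit, stood at 11.5, 14.5 and 12.2 CPM in the PDGF-B-labelled gliomas, 24.7, 28.2 and 21.9 CPM in the EGFRvIII-labelled gliomas and 5.15 CPM in the culture. Every glioma was above the culture, as for 27.8% of all genes. The PDGF-B-labelled gliomas were lower than the EGFRvIII-labelled gliomas without overlap, as for 12.6% of all genes. The log2 difference from the culture was 1.29 ± 0.31 in the PDGF-B-labelled gliomas (SE, limma adjusted p = 0.0426), called without replicate 2 labelled EGFRvIII and lost without any other glioma, with adjusted p up to 0.109 over all settings. In the EGFRvIII-labelled gliomas it was 2.25 ± 0.31 (SE, limma adjusted p = 0.00463), called whichever glioma was left out. Among 7 catalytically inactive neural ADAMs and their LGI ligands, Lgi3 alone was called, higher against the culture in both glioma groups, and 0 were called between the glioma groups by limma or with voom, with 2 at an unadjusted p under 0.05. Lgi3, a secreted ligand of ADAM22 and ADAM23, stood at 13.8, 20.9 and 21.5 CPM in the PDGF-B-labelled gliomas, 14.0, 19.8 and 14.5 CPM in the EGFRvIII-labelled gliomas and 3.21 CPM in the culture.

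Cell type markers moved beside these genes, and their part in the results was not tested. The counts of markers called stand beside 3.35% of all genes between the glioma groups. Against the culture the shares were 9.45% for the PDGF-B-labelled and 9.55% for the EGFRvIII-labelled gliomas. Of 15 oligodendrocyte precursor markers, 2 were higher in the PDGF-B-labelled than in the EGFRvIII-labelled gliomas (Gpr17 and Neu4), and 10 and 6 were higher in the PDGF-B-labelled and the EGFRvIII-labelled gliomas than in the culture. Cspg4, a proteoglycan of these precursors, stood at 1108, 1326 and 761 CPM in the PDGF-B-labelled gliomas, 615, 604 and 744 CPM in the EGFRvIII-labelled gliomas and 101 CPM in the culture. Of 20 microglia and macrophage markers, 18 were lower in the PDGF-B-labelled than in the EGFRvIII-labelled gliomas, and 19 and 20 were higher than in the culture. Without replicate 3 labelled PDGF-B 19 were called, and without any other single glioma 0 or 1. Of 12 astrocyte markers, 1 was higher (S100b) and 1 lower (Apoe) in the PDGF-B-labelled than in the EGFRvIII-labelled gliomas. The calls of Gpr17, Neu4, S100b and Apoe between the glioma groups were all lost without replicate 1 or 2 labelled PDGF-B or replicate 2 or 3 labelled EGFRvIII, and those of Gpr17 and Apoe also without replicate 1 labelled EGFRvIII, with adjusted p up to 0.171 over all settings. Of 6 measured endothelial markers 0 were called between the glioma groups by limma or with voom, with 4 at an unadjusted p under 0.05. Of 13 mature neuron markers 0 were called between them by limma or with voom, with 2 at an unadjusted p under 0.05. In the PDGF-B-labelled gliomas against the culture, 2 of the 13 were called, both higher, beside 9.45% of all genes called: Gad1, which makes GABA, and Snap25, which serves synaptic release. The other 11 were not called, 7 of the 13 had a negative log2 difference, among them Syt1 at -3.20 and Tubb3 at -2.15, and the median was -0.32. Snap25 stood at 89.4, 103 and 37.2 CPM in the PDGF-B-labelled gliomas, 56.6, 21.2 and 49.7 CPM in the EGFRvIII-labelled gliomas and 9.81 CPM in the culture, and its call was lost without replicate 1 or 2 labelled PDGF-B or replicate 1 or 3 labelled EGFRvIII, with adjusted p up to 0.126.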
